A study of Bos taurus with 4 samples.

Results

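The tripartite motif (TRIM) genes were compared between blastocysts developed from vitrified and from unfrozen control bovine morulae. Members were all probes of the EmbryoGENE EMBV3 microarray whose annotated gene symbol starts with TRIM followed by a digit, which gave 64 of 43794 probes and 52 of 15229 genes with a symbol. The symbol alone chose the members, whereas the family was picked because of TRIM64. The study selected TRIM64 on its ratio on these same arrays, so that its ratio is described here without a test.

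The vitrified group was expanded blastocysts grown from in vitro produced morulae that had been cooled on a cryotop with ethylene glycol and dimethyl sulfoxide, warmed and cultured on. The control group was expanded blastocysts grown from morulae of the same in vitro production that were never frozen, although the sample labels mark both groups as cryopreserved. In both groups the oocytes came from abattoir ovaries, the labels give the breed as beef cattle, collection 7 days after fertilization and pools of 7 embryos. The study's methods differ from the labels, with pools of varying size and morulae of day 7 that were cultured on, so that blastocysts would have been collected later. The 4 arrays lay on 1 slide, and each held 1 vitrified and 1 control pool, with the vitrified pool in Cy5 on arrays 1 and 2 and in Cy3 on arrays 3 and 4. Per the study's methods the 4 pools of a group came from separate production cycles, and the sources used here do not say which cycle was on which array. Pooled embryos hide differences between single embryos, and fewer cells of a type and less RNA per cell cannot be told apart.

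TRIM proteins are mostly E3 ubiquitin ligases. Their RING finger brings a ubiquitin-conjugating (E2) enzyme to a substrate, B-box and coiled-coil domains hold the ligases together, and the C-terminal domain, by which classes are named, picks the substrate. Different members are known for antiviral defence, for silencing of retroelements in the early embryo, for control of mRNA in stem cells and for breakdown of muscle proteins.

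Of the 52 TRIM genes, 32 had a probe above background in 4 or more of the 8 readings (4 arrays, 2 dyes), and these 32 genes (39 probes) were tested. The brightest probe of a gene stood for it. It was above background in all 8 readings for 23 genes. For 10 genes no probe was above background in any reading. A reading was above background when the spot exceeded the mean of the negative control spots by more than 2 SD. On single arrays 36 to 41 TRIM probes passed in the vitrified pool and 37 to 42 in the control pool, and 60.1% to 67.3% of all probes passed per pool. Marker genes of trophectoderm (8 of 8) and inner cell mass (4 of 4) were above background in all readings, as were 2 of 3 hypoblast markers. Of other cells, 2 of 8 cumulus, 0 of 7 oocyte and 2 of 5 sperm markers were above background in every reading. By the limit used for TRIM genes, 4 or more readings, 5 of 8 cumulus, 4 of 7 oocyte and 3 of 5 sperm markers were. AMH, HAS2, LHCGR, GDF9 and PRM2 were above background in no reading. The summed signal of the cumulus markers was 1099 to 1299 in vitrified and 1198 to 1393 in control pools, that of the oocyte markers was 795 to 872 and 861 to 945, and that of the sperm markers was 622 to 943 and 598 to 719. Their part in the results below was not tested.

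TRIM64, a RING finger member of the SPRY class, had 1 probe, which was above background in all 8 readings. Its normalized log2 signal was 8.33, 9.03, 8.98 and 8.53 in the vitrified pools of arrays 1 to 4, against 7.16, 8.01, 7.86 and 7.53 in the control pools. Every vitrified pool was above every control pool, and the pool of array 1 was the lowest of its group in both. The mean log2 signal was 8.72 ± 0.34 in vitrified and 7.64 ± 0.38 in control blastocysts (SD, n = 4 each). The ratio varied less than either signal did. The log2 ratios of vitrified over control were 1.17, 1.02, 1.12 and 1.00 on the 4 arrays, with a mean of 1.08 (SD 0.08, n = 4), a 2.11-fold difference. The means of both dye orientations, 1.09 on arrays 1 and 2 and 1.06 on arrays 3 and 4, were within 1 SD of each other. As scanned, before any correction, the spot's median intensity was 255, 467, 760 and 535 in vitrified pools and 138, 358, 227 and 164 in control pools. The thresholds for being above background were 86.1, 131, 353 and 207 in the vitrified dye and 122, 205, 126 and 109 in the control dye, so that the control pool of array 1 was just above its threshold. The fold change was close to the study's limit of 2, and the log2 ratio was 0.98 or 0.99 under other background corrections (closing section). The array names this probe TRIM64 only, and the study gives it as TRIM64 or TRIM64B, so closely similar copies of the gene may share the probe.

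**Figure D1:**
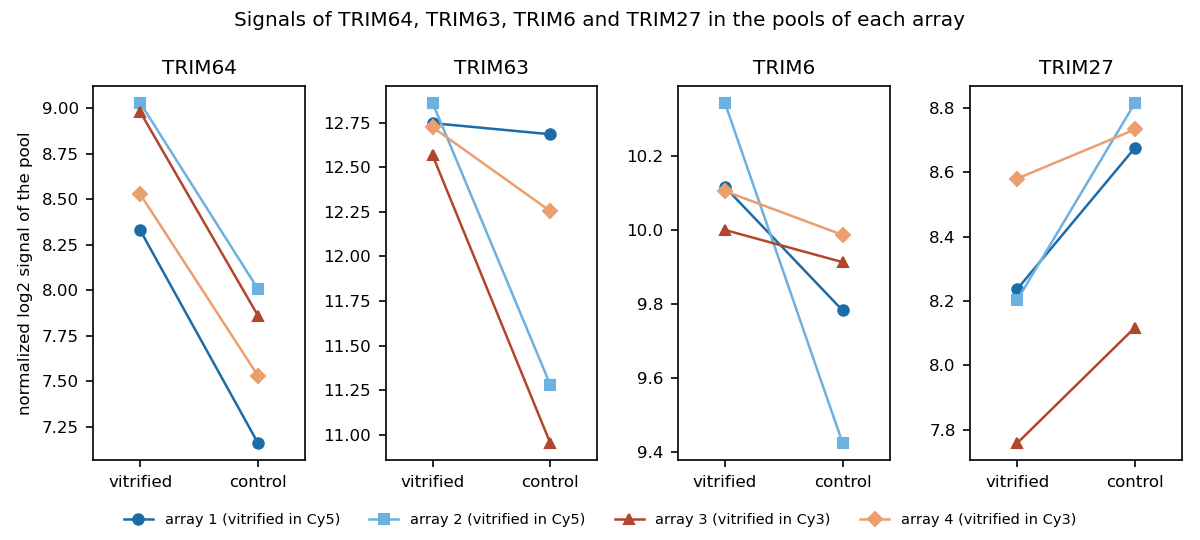
Normalized log2 signal (vertical axis, a separate scale for each gene) of the vitrified pool (left) and the control pool (right), joined by a line for each of the 4 arrays. TRIM64 had parallel lines from 8.33 to 9.03 in vitrified and 7.16 to 8.01 in control pools, TRIM63 had vitrified signals of 12.57 to 12.86 and widely spread control signals of 10.95 to 12.68, TRIM6 had its largest difference on array 2, and TRIM27 was lower in the vitrified pool of every array.

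TRIM64 lies on chromosome 29 of the ARS-UCD2.0 gene table. The array's own build is not given in the sources used here, so the table was used only for names and order. The TRIM49 probe belongs to the gene that the table calls TRIM77, with TRIM49 as a synonym, which is the second protein-coding gene from TRIM64. TRIM49 belongs to the same SPRY class as TRIM64. Its log2 signal was 7.29, 7.43, 7.14 and 7.46 in vitrified and 7.24, 7.13, 7.03 and 7.26 in control pools. The vitrified pool was higher on each of the 4 arrays, but the groups overlapped. The log2 ratio was 0.17 (95% interval -0.17 to 0.50, unadjusted p = 0.287 in limma). A second TRIM49 probe was above background in 3 readings and was not tested. Among the tested protein-coding genes within 10 steps of TRIM64, which were looked up after their values had been seen, log2 ratios ran from -0.72 for SMCO4 (unadjusted p = 0.00136) to 0.44 for CHORDC1 (unadjusted p = 0.0356), with adjusted p of 0.392 and 0.634 in limma. SMCO4 was lower in the vitrified pool on all 4 arrays, and CHORDC1, which encodes a co-chaperone of heat shock protein HSP90, was higher on all 4.

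Across the 32 TRIM genes, log2 ratios were centred on 0. Their median was 0.00056, against 0.0023 over all 11417 genes tested, and the median size regardless of direction was 0.14 against 0.15. Without TRIM64 the median was -0.0084. There were 16 genes above 0 and 16 below, 30 had a log2 ratio smaller than 0.5 in size, and 26 changed sign between arrays. Of all genes tested, 7.48% were higher and 8.33% lower on all 4 arrays, so that most genes changed sign too. The shares of all genes above 0 and under 0.5 in size are not given here, and nothing is read from those counts. The medians on arrays 1 to 4 were 0.03, 0.07, -0.0001 and 0.04. Array 2 held 8 TRIM genes with a log2 ratio above 0.5 and 2 below -0.5, whereas the other arrays held 2 to 4 and 1 to 5. The share of all genes beyond these limits on each array is not given here, so that nothing is read from these counts.

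At an unadjusted p under 0.05 in limma, TRIM6, TRIM63 and TRIM64 were higher in vitrified blastocysts, which is 3 of 32 genes, where 3.49% of all genes tested were. TRIM64 is among them by choice. TRIM27 alone was lower, where 5.3% of all genes were. At the study's threshold, which asked for a fold change of 2 or more beside that p, TRIM64 alone was higher (0.114% of all genes) and 0 TRIM genes were lower (0.28%). TRIM64 was selected by that threshold on these arrays, so that its passing is no result. No TRIM gene passed an adjusted p under 0.05, as did 0% of all genes, and the lowest adjusted p was 0.523 among TRIM probes other than TRIM64 and 0.191 over all probes. The vitrified pool was higher on all 4 arrays for TRIM6, TRIM49, TRIM63 and, by choice, TRIM64 (7.48% of all genes) and lower on all 4 for TRIM27 and TRIM71 (8.33%). TRIM71 was tested on the strength of its control readings, 4 of 4 above background against 1 of 4 vitrified ones, so that nothing is read from its place in these counts. The lowest vitrified signal lay above the highest control signal for TRIM6 and, by choice, TRIM64 (1.52% of all genes), and the highest vitrified signal lay below the lowest control signal for TRIM71 (2.08%). Since 1 gene makes up 3.13% of the 32, nothing particular to the family is read from these counts.

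**Figure D2:**
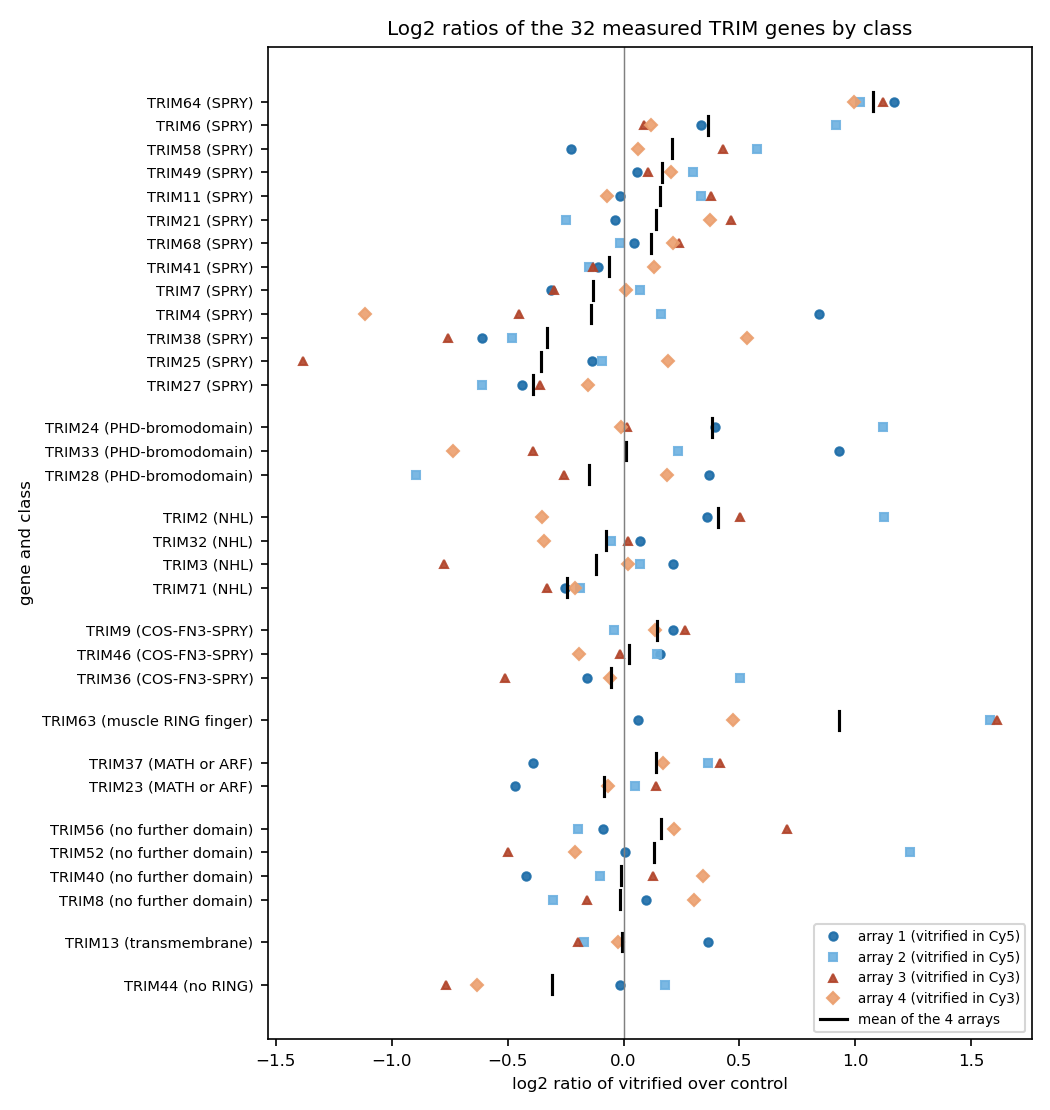
Log2 ratio of vitrified over control (horizontal axis) of the 32 measured TRIM genes (rows, grouped by the class of the C-terminal domain), with a symbol for each of the 4 arrays and a bar for their mean. TRIM64 had 4 values between 1.00 and 1.17, TRIM63 had 0.06 to 1.61, and most other genes scattered on both sides of 0.

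TRIM63, the muscle RING finger ligase that tags contractile proteins for breakdown in wasting muscle, had the highest log2 ratio of the family after TRIM64. Its log2 signal was 12.75, 12.86, 12.57 and 12.72 in vitrified pools, against 12.68, 11.28, 10.95 and 12.25 in control pools. The vitrified pools lay close together, the control pools of arrays 2 and 3 were far lower, and the groups overlapped through the control pool of array 1. The log2 ratios were thus 0.06, 1.58, 1.61 and 0.47, with a mean of 0.93 (SE 0.27, unadjusted p = 0.0073, adjusted p = 0.523 in limma), a 1.91-fold difference. The spread was in the control pools, with an SD of 0.81 against 0.12 in vitrified pools (n = 4 each). The mean was 1.31 without array 1, 0.55 without array 2 (unadjusted p = 0.0494), 0.65 without array 3 and 1.22 without array 4, and each of these fits kept an unadjusted p under 0.05. Its partners in muscle were not measured beside it, since TRIM54 was above background in 3 readings and TRIM55 in 0. On chromosome 2 the neighbouring genes that were tested, which were looked up after their values had been seen, had log2 ratios from -0.37 for SH3BGRL3 to 0.27 for SELENON, with unadjusted p of 0.109 and 0.236 in limma.

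TRIM6, a SPRY class ligase that in human cells makes free ubiquitin chains for interferon signalling, had log2 signals of 10.12, 10.34, 9.999 and 10.10 in vitrified and 9.78, 9.42, 9.91 and 9.99 in control pools. The groups did not overlap, but the gap between array 3's vitrified and array 4's control pool was small. The log2 ratios were 0.33, 0.92, 0.09 and 0.12, with a mean of 0.36 (SE 0.16, unadjusted p = 0.0497, adjusted p = 0.651 in limma). Array 2 gave the largest ratio. Without it the mean was 0.22 and the unadjusted p was 0.316, and without arrays 3 and 4 that p was 0.0935 and 0.106.

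TRIM27, a nuclear SPRY class ligase first known as a fusion partner of the RET kinase in human tumours, was lower in vitrified blastocysts. Its log2 signal was 8.24, 8.20, 7.76 and 8.58 in vitrified and 8.68, 8.82, 8.12 and 8.73 in control pools. Each vitrified pool was below the control pool of its own array, and the groups overlapped, because both pools of array 3 were low. The log2 ratios were -0.44, -0.61, -0.36 and -0.15, with a mean of -0.39 (SE 0.15, unadjusted p = 0.0272, adjusted p = 0.626 in limma). The unadjusted p was 0.0609, 0.124 and 0.0968 without arrays 1, 2 and 3, with means of -0.43, -0.35 and -0.34.

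In the SPRY class as a whole, 13 of the 23 genes on the array were tested, of which TRIM6 and, by choice, TRIM64 were higher and TRIM27 was lower below an unadjusted p of 0.05 (3.49% and 5.3% of all genes). TRIM7, a partner of glycogenin, had a mean log2 ratio of -0.13. TRIM25, which adds ubiquitin to the viral RNA sensor RIG-I, had log2 ratios of -0.13, -0.09, -1.38 and 0.19 and a mean of -0.36 (SE 0.24, unadjusted p = 0.169). Array 3 alone gave its low value, with a vitrified reading of 334 that was under the background threshold of 353. TRIM38, which acts in antiviral and inflammatory signalling, had -0.61, -0.48, -0.76 and 0.53 and a mean of -0.33 (SE 0.21, unadjusted p = 0.153), with array 4 opposed to the others. Both were below an unadjusted p of 0.05 in limma when array 4 was left out. For TRIM25 that fit includes the array 3 reading at background, so that nothing is read from it. TRIM21, a cytosolic antibody receptor, had a mean of 0.14, and TRIM11, TRIM41, TRIM58 and TRIM68 had means of 0.16, -0.06, 0.21 and 0.12. TRIM7, TRIM25, TRIM38, TRIM21, TRIM11 and TRIM58 were named after their values had been seen. Of 10 listed TRIM genes that interferon induces in mammalian cells, 7 were on the array and 5 were tested (TRIM6, TRIM21, TRIM25, TRIM38 and TRIM56). Below an unadjusted p of 0.05, TRIM6 was higher and 0 were lower (3.49% and 5.3% of all genes), and the median log2 ratio of the 5 was 0.14, against 0.0023 over all genes.

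The class with a PHD finger and a bromodomain, which read histone marks, holds the TRIM genes best known from early embryos. TRIM28, the corepressor that KRAB zinc finger proteins recruit to silence retroelements and to guard imprints in mouse embryos, had log2 signals of 11.48, 10.70, 10.58 and 10.97 in vitrified and 11.11, 11.59, 10.84 and 10.78 in control pools. The groups overlapped, and the vitrified pool was higher on arrays 1 and 4 and lower on arrays 2 and 3. Its log2 ratio was -0.15 (95% interval -0.64 to 0.34, unadjusted p = 0.505 in limma). TRIM33, which restrains SMAD4 in TGF-beta signalling, had a ratio of 0.01 (95% interval -0.38 to 0.40). TRIM24, a coregulator of nuclear receptors, had 0.39, 1.12, 0.02 and -0.01 with its brightest probe and a mean of 0.38 (SE 0.17, unadjusted p = 0.0508). Without array 2 the mean was 0.20, and without array 1 the mean was 0.56 (unadjusted p = 0.0195). Its other probes had means of 0.17 and 0.10. TRIM66, the remaining member, was above background in 1 reading.

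In the class with NHL or filamin repeats, TRIM71, the LIN41 protein that binds and represses mRNAs in worm and mouse development, was lower in the vitrified pool of every array. Its log2 signal was 6.85, 6.90, 6.68 and 6.91 in vitrified and 7.10, 7.09, 7.01 and 7.11 in control pools, and the groups did not overlap. The spot was above background in 1 of 4 vitrified and in 4 of 4 control readings, so that both groups were near the limit of detection and the non-overlap sets control signals against readings mostly at background. The log2 ratio was -0.24 (SD 0.06, SE 0.14, unadjusted p = 0.127 in limma). The SD over its own arrays was smaller than the SE, which borrows the spread of other probes. TRIM2, a ligase for neurofilament light chain in mice, had 0.36, 1.12, 0.50 and -0.35 and a mean of 0.41 (SE 0.20, unadjusted p = 0.0707). Array 4 was opposed, and without arrays 1 and 4 the means were 0.60 and 0.62 (unadjusted p = 0.0251 and 0.0151). TRIM3, best known from brain, and TRIM32, mutated in a human limb-girdle muscular dystrophy, had means of -0.12 and -0.08, and TRIM45 was above background in 1 reading.

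The microtubule-binding class with COS and FN3 domains had small ratios. TRIM9, known from neurons, had a mean log2 ratio of 0.14, TRIM46, which bundles microtubules in axons, one of 0.02, and TRIM36, required for early axis formation in frogs, one of -0.05. TRIM67 was not above background in any reading. TRIM37, which limits centriole assembly, and TRIM23, which carries an ARF domain, had 0.14 and -0.09. TRIM13, a membrane-bound ligase of the endoplasmic reticulum, had -0.01, and in the class with no further domain TRIM8, TRIM40, TRIM52 and TRIM56 had -0.02, -0.01, 0.13 and 0.16. None of these genes was below an unadjusted p of 0.05 in limma, and they were listed to complete the family.

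Of 13 listed TRIM genes of the early embryo or germ line, 6 were on the array and all 6 were tested (TRIM24, TRIM28, TRIM33, TRIM49, TRIM64 and TRIM71). TRIM64 was higher, by choice, and 0 were lower below an unadjusted p of 0.05 (3.49% and 5.3% of all genes). Their median log2 ratio was 0.09, against 0.0023 over all genes. This median includes TRIM64, chosen for its ratio, and TRIM71, tested on the strength of its control readings, so that nothing is read from it. The 20 genes that were not tested, because fewer than 4 readings were above background, were TRIM10, TRIM14, TRIM15, TRIM17, TRIM29, TRIM31, TRIM35, TRIM42, TRIM45, TRIM47, TRIM50, TRIM54, TRIM55, TRIM59, TRIM62, TRIM65, TRIM66, TRIM67, TRIM69 and TRIM72. TRIM31, TRIM42 and TRIM54 came nearest to the limit, with 3 readings each.

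Several probes of a gene give a check within the array. Of 8 TRIM genes with more than 1 probe, 5 had more than 1 tested probe, and they differed in mean log2 ratio by 0.13 for TRIM36 to 0.40 for TRIM2. The 3 TRIM2 probes had 0.41 (SE 0.20, the brightest), 0.14 (SE 0.15) and 0.01 (SE 0.15). The brightest probe of TRIM41 had -0.06 and the other 0.15, and those of TRIM36 had -0.05 and 0.07, so that the direction changed with the probe. The brightest probe of TRIM68 had 0.12 and the other 0.29. The latter was above background in 3 of 4 vitrified and 1 of 4 control readings, so that nothing is read from its direction. The brightest probes of TRIM2 and TRIM24 had the highest mean of their gene's probes, and in both array 2 lay above 1. TRIM64, TRIM63, TRIM6 and TRIM27 each had a single probe, so no second probe bears on them.

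**Figure D3:**
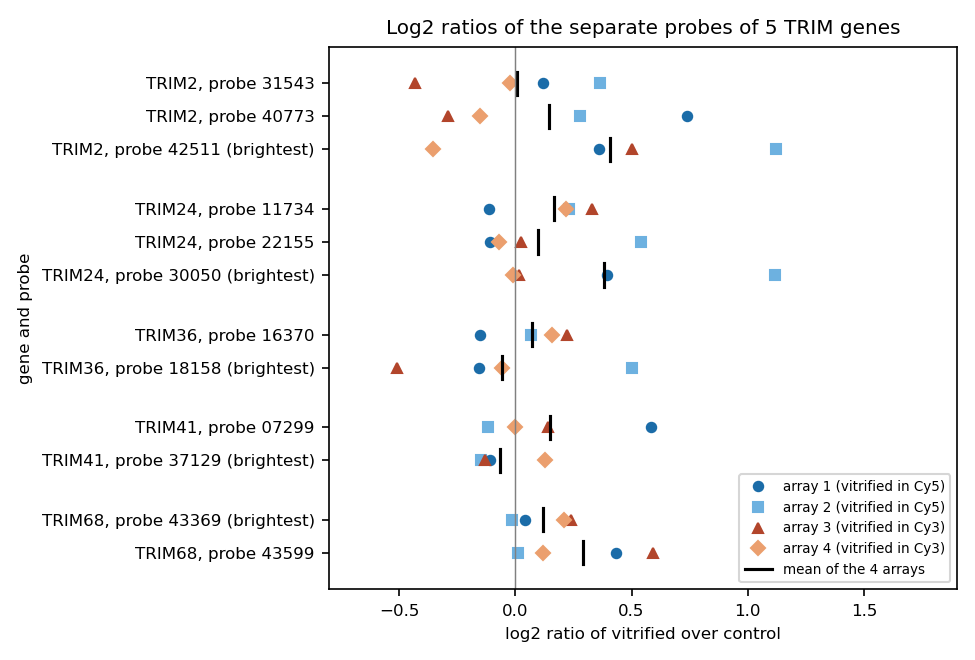
Log2 ratio of vitrified over control (horizontal axis) for each tested probe of the 5 TRIM genes with more than 1 tested probe (rows), with a symbol for each of the 4 arrays and a bar for their mean. The brightest probes of TRIM2 and TRIM24 had the highest mean of their gene, with array 2 at 1.12 in both, and TRIM36 and TRIM41 had probes on both sides of 0.

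Because the dyes were swapped on arrays 3 and 4, a difference between the dyes shows as ratios that differ between the orientations. Their signs are opposite only where it exceeds the difference between the groups. The dye term passed an unadjusted p under 0.05 in limma for TRIM4, TRIM33, TRIM44 and TRIM52, which is 4 of 32 genes, where 7.21% of all genes had one. TRIM33 had log2 ratios of 0.93, 0.23, -0.39 and -0.73. Its log2 signal was 11.04, 10.74, 10.02 and 10.03 in vitrified and 10.11, 10.51, 10.41 and 10.76 in control pools, so that the pool in Cy5 was higher on every array. TRIM4, which like TRIM25 acts on RIG-I, had 0.84, 0.16, -0.45 and -1.12. It was above background in 2 of 4 vitrified and 2 of 4 control readings, all of them in Cy5. The dye term of TRIM4 thus sets signal against readings at background, and nothing is read from its place in the count of dye terms. TRIM52 had 0.01, 1.23, -0.50 and -0.21. TRIM44, which has no RING finger, had -0.02, 0.18, -0.77 and -0.63, with 1 of 4 vitrified and 3 of 4 control readings above background. In Cy3, TRIM44 was above background on array 2 only, so that nothing is read from its dye term either. The mean ratios of TRIM64 were alike in both orientations, whereas TRIM6 had 0.63 on arrays 1 and 2 and 0.10 on arrays 3 and 4. TRIM63 had means of 0.82 and 1.04, but its ratios differed widely within each orientation (0.06 and 1.58, then 1.61 and 0.47). TRIM4, TRIM44 and TRIM52 were named after their values had been seen.

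**Figure D4:**
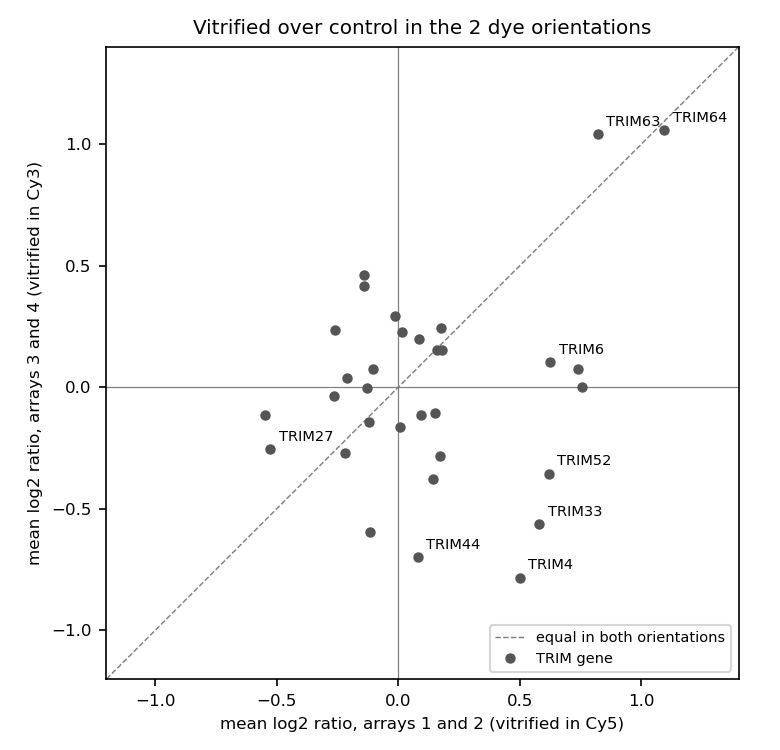
Mean log2 ratio of vitrified over control of the 32 measured TRIM genes on arrays 1 and 2, with vitrified in Cy5 (horizontal axis), and on arrays 3 and 4, with vitrified in Cy3 (vertical axis), with labels on genes whose group difference or dye term had an unadjusted p under 0.05. TRIM64 lay on the dashed line of equal ratios at 1.09 and 1.06, and TRIM33 (0.58 and -0.56), TRIM4 (0.50 and -0.78) and TRIM52 (0.62 and -0.36) had opposite signs.

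Genes that work with TRIM proteins were described from lists. Of TRIM-class genes under other symbols, 4 of 7 were tested. Below an unadjusted p of 0.05 in limma, 0 were higher and 0 lower (3.49% and 5.3% of all genes). With so few genes, nothing is read from this count. MID1, a microtubule-bound ligase, had a log2 ratio of 0.19, BSPRY -0.13, TRIML2 0.10 and TRIML1 0.03. Another BSPRY probe had -0.36 (unadjusted p = 0.0451). Of 14 listed ubiquitin E1 and E2 genes, 12 were tested, and the median log2 ratio of the 12 was -0.02. Below an unadjusted p of 0.05 in limma, 2 were higher and 0 lower (3.49% and 5.3% of all genes). UBE2W, an E2 that adds ubiquitin to N termini, had 0.63, 0.52, 0.34 and 0.06 and a mean of 0.39 (SE 0.15, unadjusted p = 0.0291). UBE2E1 had 0.79, 0.22, 1.30 and -0.08 and a mean of 0.56 (SE 0.23, unadjusted p = 0.0379). Array 4 had the smallest ratio of both. UBA6, an E1 enzyme, had 0.26 and UBE2E2 had -0.21, and both were above an unadjusted p of 0.05.

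Of 12 listed partners of TRIM28 in gene silencing, 11 were tested, 3 were higher and 0 were lower, where 3.49% and 5.3% of all genes were, and the median was 0.08. HDAC2, a histone deacetylase, had log2 ratios of 1.01, 0.79, 0.46 and -0.04 and a mean of 0.55 (SE 0.16, unadjusted p = 0.0069, adjusted p = 0.523). CBX5 and CBX1, heterochromatin proteins that bind methylated histone H3, had 0.44 (SE 0.17, unadjusted p = 0.0261) and 0.52 (SE 0.23, unadjusted p = 0.0483), and a second CBX5 probe had 0.35 (unadjusted p = 0.0432). CBX1 had 1.12, -0.13, 0.97 and 0.15 on the arrays, so array 2 was opposed. MORC3 had -0.13. With each array left out in turn, HDAC2 stayed under an unadjusted p of 0.05 (log2 ratio 0.43 to 0.68). CBX1 did not without arrays 1 and 3 (unadjusted p = 0.378 and 0.233), nor did UBE2E1 (0.149 and 0.310). CBX5 did not without arrays 2 and 3 (0.132 and 0.153), and UBE2W did not without arrays 1, 2 and 3 (0.115, 0.0731 and 0.114). These fits were chosen after the data had been seen. Of 15 listed genes that sense foreign RNA or DNA or act with TRIM proteins downstream, 8 were tested. Below an unadjusted p of 0.05 in limma, 0 were higher and 0 lower (3.49% and 5.3% of all genes). With so few genes, nothing is read from this count. IFIH1, an RNA sensor, had a log2 ratio of -0.21, TRAF6 -0.14, TBK1 0.11 and IRF7 -0.15, and the median of the 8 was 0.03.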

How the data were processed

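Pools of expanded blastocysts from vitrified and control bovine morulae were hybridized in pairs to 4 two-colour arrays. Spot intensity values (median signal and median local background of either dye) were those the authors deposited, before any background subtraction. The authors' log2 ratios, Cy5 over Cy3, had been made with background subtraction, lowess and quantile normalization per their methods. They matched loess ratios before quantile normalization (lowest r 0.999), were not turned for the dye, and served as an alternative.

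With limma 3.58.1 (R 4.3.3, package data.table in version 1.17.8), background was subtracted with a floor of 0.5, and log2 ratios went through loess on each array and quantile normalization across arrays, and were turned to vitrified over control. The 28944 probes that exceeded the mean of the 153 negative controls by 2 SD in 4 or more of 8 readings were tested with limma (group difference and dye term, 2 residual and 6.80 prior degrees of freedom, two-sided p, Benjamini-Hochberg over all probes tested). Signals are normalized log2 values. Symbols came from the platform's annotation, which gives 1 symbol for 21790 probes and none for the others. The ARS-UCD2.0 gene table held 51 of the 52 TRIM symbols as names and 1 as a synonym. The number of arrays limits the precision. The steps were tested on simulated data.

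Members and lists were chosen with earlier results of these data known. Genes named were TRIM64, those with an unadjusted p under 0.05 or with 1 direction on all arrays and a log2 ratio of at least 0.5 in size, up to 5 with the widest range between their own probes, the classes with PHD finger, NHL repeats or COS domain, the early embryo list, and up to 4 genes of each partner list with the smallest p. Other TRIM genes were named to complete the family. Alternatives were each array left out, averaging over a gene's probes, the authors' ratios, an intensity trend with a robust fit, leaving out the dye term or quantile normalization, median centring, a stricter or no filter on dim probes, normexp with an offset of 50 and unsubtracted signals. Slow-frozen embryos were not analysed here.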

Additional observations from a re-analysis of the deposited data

Results flagged for a closer look

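The log2 ratio of TRIM41 on array 4, 0.13, lay apart from the other 3 arrays, which had -0.11, -0.15 and -0.13. The gap was 0.852 of the whole range, above the limit of Dixon's test for 4 values. Chance alone sets apart about 1 in 20 such groups of values, and 1 of the 32 TRIM genes was. For 4 TRIM genes the ratio of vitrified over control differed between the dye orientations in limma. The dye term, by which the mean of arrays 1 and 2 lay above and that of arrays 3 and 4 below the common mean, was 0.57 for TRIM33 (unadjusted p = 0.0089), 0.64 for TRIM4 (unadjusted p = 0.0069), 0.39 for TRIM44 (unadjusted p = 0.0268) and 0.49 for TRIM52 (unadjusted p = 0.0443) on the log2 scale. Of all genes, 7.21% had a dye term at that p. TRIM4 was above background in its Cy5 readings only, and TRIM44 in Cy3 on array 2 only, so that nothing is read from their dye terms.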

How the results depend on the processing

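With normexp correction and with no background subtraction, the log2 ratio of TRIM64 was 0.98 and 0.99, and 0 TRIM genes were higher at the study's threshold. With no filter on dim probes all 52 TRIM genes were tested, of which 2 were lower below an unadjusted p of 0.05, as were 2 with an intensity trend and a robust fit (TRIM27 and TRIM44 in both). TRIM44 was above background in 1 of 4 vitrified and 3 of 4 control readings, so that nothing is read from its calls. With 1 array left out, 2 to 5 TRIM genes were higher (5 without array 1) and 0 to 3 lower (3 without array 4) at an unadjusted p under 0.05, 1 to 2 were higher at the study's threshold (TRIM63 joined without arrays 1 and 4), 0 to 1 TRIM probes (1 without array 4) passed an adjusted p under 0.05, the median over TRIM genes was 0.028 to 0.056, and TRIM64 had 1.04 to 1.11. The share of all genes called is given for the main fit alone, so that nothing is read from the counts of called genes under other settings. TRIM63 was called higher in every setting. TRIM6 was not called in 6 of the other settings (unadjusted p from 0.0508 with no quantile normalization to 0.0956 with an intensity trend) nor, of the fits with 1 array left out, without arrays 2, 3 and 4 (0.0935 to 0.316). With the mean over a gene's probes, TRIM36 and TRIM41 turned to 0.0094 and 0.043. With 1 array left out, direction also turned for TRIM33 (-0.16 to 0.18), TRIM36 (-0.22 to 0.11), TRIM28 (-0.47 to 0.17), TRIM3 (-0.32 to 0.082), TRIM41 (-0.13 to 0.00057), TRIM46 (-0.021 to 0.067) and TRIM32 (-0.17 to 0.012). TRIM24 passed an unadjusted p of 0.05 with normexp (0.0472), without subtraction (0.0452) and without a filter (0.0389). The causes were not tested. In fits with 1 array left out, the array left alone in its orientation weighs as much as the other two. No paired analysis was possible because no pairing remains beyond that of the main fit, in which each ratio already sets the vitrified against the control pool of the same array.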
